A study of Mus musculus with 6 samples.

Results

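The replication-dependent histone genes were examined, 67 of the 21951 protein-coding genes of the GENCODE M21 basic annotation. They were chosen by name alone, as every protein-coding gene whose symbol starts with Hist1h, Hist2h, Hist3h or Hist4h. By type they were 6 genes of the linker histone H1, 18 of H2A, 18 of H2B, 12 of H3 and 13 of H4. By cluster they were 54 Hist1 genes on chromosome 13, 10 Hist2 genes on chromosome 3, 2 Hist3 genes on chromosome 11 and 1 Hist4 gene on chromosome 6.

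Replication-dependent histone genes supply the core histones H2A, H2B, H3 and H4, around which DNA is wrapped, and the linker histone H1, which binds where DNA enters and leaves the nucleosome. They are expressed chiefly while a cell copies its DNA, lie in clusters, mostly lack introns, and make mRNAs that end in a conserved hairpin in place of a poly(A) tail. Activated T cells divide rapidly in culture and so draw on these genes, whereas a few members are known mainly from the testis.

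Accessible DNA was mapped by ATAC-seq, which uses the Tn5 transposase to insert sequencing adapters where chromatin is open. The cells were mouse T helper cells differentiated in vitro, and the study asked how accessibility differed between subsets, above all at the Il9 gene. The 3 subsets were Th9, Th2 and Th17, each with 2 libraries, labelled replicate 1 and replicate 3, and every library had a peak list of its own. All came from C57BL6/J spleen and were labelled wild type. Per the methods, naive CD4+ CD62L+ cells were activated with antibodies to CD3 and CD28 and collected on day 5. Th9 cells received IL-4, IL-2, TGF-β1 and anti-IFNγ, Th2 cells IL-4, IL-2 and anti-IFNγ, and Th17 cells IL-6, TGF-β1, IL-23 and IL-1β with antibodies against IFNγ, IL-4 and IL-2. The mice of the study were of both sexes and between 8 and 16 weeks old. Whether the replicates came from separate mice was not given in the sources used here, so p-values measure the spread between these libraries, which may be technical.

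The lists held 100317 to 142213 peaks, with no read counts, and the lowest fold enrichment listed ran from 1.71 to 2.11. In each subset the list of replicate 1 was the longer. Of 6 T cell markers, 5 had a promoter peak in all 6 libraries and the other, Cd4, in 4. Of 4 myeloid markers 0 were called in all 6, and Cd14 was called in 3. Of the CD8 genes Cd8b1 was called in 6 libraries and Cd8a in 0. The subset cytokine genes Il9 and Il4 were called in 4 libraries each, Il17a in 3 and Il17f in 2. Whether cells of other types contributed to the values of the histone genes was not tested.

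Promoter sequence is shown first for 6 members chosen to span the range of what was measured. They are a member with one of the clearest subset differences (Hist1h2bm), a testis gene without a peak (Hist1h2ba), the member of narrowest peaks (Hist1h4b), the H1 gene of lowest rank (Hist1h1b), an H1 gene whose annotated starts disagree (Hist1h1d) and the member of strongest peaks (Hist2h2aa1). Each runs 5′ to 3′ from 250 bp before to 50 bp after the RefSeq start on GRCm38.p6. Capitals mark matches on either strand to 4 short words known from histone promoters, which are the TATA box TATAAA, the CCAAT box CCAAT, the octamer ATTTGCAT and the H1 box AAACACA.
Hist1h2bm, chr13:21721794-21722093, plus strand: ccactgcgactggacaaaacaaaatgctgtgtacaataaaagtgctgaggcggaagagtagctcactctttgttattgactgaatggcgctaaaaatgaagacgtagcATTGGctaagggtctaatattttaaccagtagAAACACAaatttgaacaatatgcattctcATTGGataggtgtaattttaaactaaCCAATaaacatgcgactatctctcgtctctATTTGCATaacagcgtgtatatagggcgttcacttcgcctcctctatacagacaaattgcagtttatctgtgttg
Hist1h2ba, chr13:23934107-23934406, minus strand: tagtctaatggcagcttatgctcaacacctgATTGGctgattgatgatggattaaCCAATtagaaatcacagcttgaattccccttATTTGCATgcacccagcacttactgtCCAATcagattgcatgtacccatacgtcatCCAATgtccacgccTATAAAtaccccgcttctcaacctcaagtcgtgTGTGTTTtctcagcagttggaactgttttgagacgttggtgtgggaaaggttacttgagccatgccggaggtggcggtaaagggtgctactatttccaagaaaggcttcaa
Hist1h4b, chr13:23756687-23756986, plus strand: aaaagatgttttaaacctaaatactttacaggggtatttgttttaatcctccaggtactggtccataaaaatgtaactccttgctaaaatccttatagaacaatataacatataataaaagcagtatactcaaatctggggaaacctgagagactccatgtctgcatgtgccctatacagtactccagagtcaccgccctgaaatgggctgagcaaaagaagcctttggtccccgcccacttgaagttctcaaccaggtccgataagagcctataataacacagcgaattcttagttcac
Hist1h1b, chr13:21780576-21780875, minus strand: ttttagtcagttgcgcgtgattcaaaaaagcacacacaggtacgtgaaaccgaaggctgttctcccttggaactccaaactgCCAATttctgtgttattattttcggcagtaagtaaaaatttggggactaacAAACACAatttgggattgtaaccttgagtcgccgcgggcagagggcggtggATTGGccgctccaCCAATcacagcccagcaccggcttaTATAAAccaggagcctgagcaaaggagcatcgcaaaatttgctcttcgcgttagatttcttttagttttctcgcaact
Hist1h1d, chr13:23554782-23555081, plus strand: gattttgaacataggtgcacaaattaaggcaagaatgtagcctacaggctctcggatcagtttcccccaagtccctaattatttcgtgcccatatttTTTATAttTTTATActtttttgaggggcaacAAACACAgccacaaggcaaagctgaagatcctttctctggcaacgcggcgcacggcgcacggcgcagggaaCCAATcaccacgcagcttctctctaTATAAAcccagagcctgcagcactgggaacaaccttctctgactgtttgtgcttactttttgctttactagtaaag
Hist2h2aa1, chr3:96245247-96245546, plus strand: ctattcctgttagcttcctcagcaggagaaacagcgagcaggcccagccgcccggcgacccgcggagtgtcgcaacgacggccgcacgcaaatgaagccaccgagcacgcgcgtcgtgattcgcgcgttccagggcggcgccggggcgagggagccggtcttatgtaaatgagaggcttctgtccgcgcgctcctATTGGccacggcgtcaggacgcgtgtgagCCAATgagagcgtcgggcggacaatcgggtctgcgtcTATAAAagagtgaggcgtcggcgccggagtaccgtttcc

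RefSeq promoters could be matched to 62 of the 67 members, and words sharing bases with another word were found in 0 of them. The CCAAT box occurred in 53 of 62 promoters (85.5%) and in 38.9% of the promoters of 17430 other protein-coding genes. It was present in every matched promoter of H1, H2A, H2B and H3, at 6, 18, 16 and 10 genes, but in 3 of 12 H4 promoters. The TATA box occurred in 35 of 62 (56.5%) against 13.2% of other promoters. The octamer, the binding word of the POU factor encoded by Pou2f1, occurred in 13 of 62 (21.0%) against 1.64%, with 7 in H2A and 6 in H2B promoters and 0 in the other types. The H1 box occurred in 9 of 62 (14.5%) against 6.10%, with 5 in the 6 H1 promoters, 2 in H2A, 2 in H2B and 0 in H3 and H4 promoters. Where an H2A and an H2B gene face each other, their windows overlap. A word in the shared stretch is then counted for both genes, so these counts are not independent. Median GC content was 45.3% over members and 56.3% over other genes, and the median CpG count per 300 bp was 11 and 13. Among the printed promoters, Hist2h2aa1 held 41 CpG and 64.7% GC, whereas Hist1h4b held 4 CpG and 0 of the words. Hist1h2ba, which had no peak in any library, held 1 TATA box, 4 CCAAT boxes, 1 octamer and 1 H1 box, so the words alone did not separate members with and without a peak. A match of letters is a description and not evidence of binding.

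At the other end of the genes, a perfect hairpin of a 6-base stem opening with GG and a 4-base loop stood within 150 bases after the stop codon of 65 of 67 members, 22 to 59 bases on (median 31). The same search found one after 0.512% of 21668 other protein-coding genes. The forms carried by the most members are shown with the stem in capitals and the loop in lower case.
Commonest form, 41 members, none of them H4: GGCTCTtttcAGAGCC
Second form, 9 members, of which 4 H2B and 3 H3: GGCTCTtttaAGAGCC
Next form, 8 members, all of them H4: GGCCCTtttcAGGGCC
The commonest form also followed the stop codon of 1 gene outside the list, the histone gene H2bfm. No hairpin of this kind was found for Hist1h2an or Hist2h2be. All 4 members without a promoter peak carried one.

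A gene was counted as having a promoter peak where any of its annotated starts had a peak reaching within 1000 bp on the upstream side or 100 bp on the downstream side, with 1 shared base being enough. By this measure 63 of 67 members (94.0%) had a promoter peak in all 6 libraries, whereas 58.7% of all protein-coding genes did. The remaining 4 had one in no library, against 28% of all genes, and no member was called in some libraries only. All 12 H3 and all 13 H4 genes were called, with 17 of 18 H2A, 17 of 18 H2B and 4 of 6 H1 genes. For comparison, of 1319 other single-exon protein-coding genes, 323 (24.5%) were called in all 6.

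The 4 members without a promoter peak were Hist1h1t, Hist1h2aa, Hist1h2ba and Hist1h1d. The first 3 encode the H1, H2A and H2B variants known from the testis, and they are all of the testis genes fixed as a group. Hist1h2aa and Hist1h2ba face each other 306 bp apart at the end of the Hist1 cluster, and the stretch holding them, chr13:23933773-23934851, contained 0 peaks in each library. The peak nearest to Hist1h2ba lay 23643 bp from its start in Th17 replicate 1, and the one nearest to Hist1h2aa lay 160541 bp from its start in Th9 replicate 3. Hist1h1t differed in that its neighbours were open. Its nearest peak began 1707 to 1823 bp downstream of its start in the 6 libraries and was the peak of Hist1h4c, an H4 gene.

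Hist1h1d, which encodes a somatic H1, was without a promoter peak only by its annotated start. The GENCODE start at position 23553262 of chromosome 13 lies 1828 bp before the start codon, and the RefSeq start lies 1770 bp downstream of the GENCODE one. A peak covered the start codon in all 6 libraries. Its percentile within the list was 98.0 in Th9 replicate 1 and 93.5 in replicate 3, 97.4 and 95.6 for the Th2 libraries, and 91.6 and 85.9 for those of Th17. Its width was 1471 to 1670 bp. Thus the 2 Th17 libraries had the 2 lowest values. With start codons in place of annotated starts, an alternative chosen after this gene had been seen, 64 members were called in all 6 libraries and 3 in none, the 3 testis genes.

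**Figure D1:**
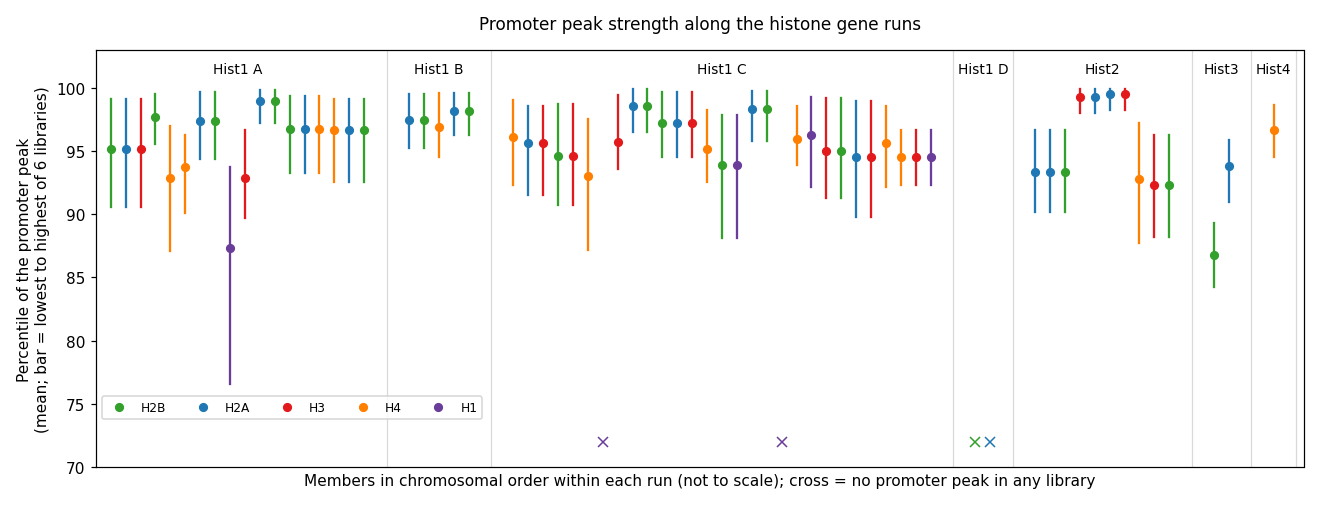
Percentile of the promoter peak (vertical axis, fold enrichment ranked within its list) of each of the 67 members, in chromosomal order within each run of neighbouring genes and coloured by histone type. Points are means over the 6 libraries, bars run from the lowest to the highest library, and crosses at the foot mark the 4 members with no promoter peak, which have no percentile. The Hist2h2aa1, Hist2h3c1, Hist2h2aa2 and Hist2h3c2 peaks stand at the top and Hist1h1b and Hist3h2ba lowest.

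Members fell into runs where starts lay within 100 kb of the next. Hist1 formed 4 runs, here A to D, with 18, 5, 29 and 2 members. Run A spanned chr13:21715763-21837530, run B chr13:22035164-22043676 and run C chr13:23531050-23764406, and the Hist2 run spanned chr3:96219865-96270132. In runs A, B and Hist2 every member was called in all 6 libraries, and in run C 27 of 29. Peaks covered 15.5% to 20.8% of run A over the libraries, 39.8% to 58.9% of the compact run B, 12.7% to 16.6% of run C and 20.2% to 23.7% of the Hist2 run. All 5 peaks of the Hist2 run in each library were promoter peaks of members. The only other protein-coding gene within a run was Hfe, a regulator of iron uptake in run C. It had a promoter peak in 4 libraries, at a mean percentile of 18.3, below every called member.

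Many members shared a peak. The 63 called members rested on 36 or 37 distinct peaks per library, of which 16 or 17 held 1 member, 13 or 14 held 2 and 6 or 7 held 3, and members of a shared peak have identical values. Of 13 head-to-head pairs, 12 joined an H2A and an H2B gene with starts 176 to 306 bp apart, and the other joined Hist1h2bh (H2B) and Hist1h3f (H3) at 660 bp. In 12 of the 13 pairs both genes lay under a single peak in every library, the exception being Hist1h2aa and Hist1h2ba. Peaks also reached over the genes themselves. The median share of the gene body covered by peaks was 100% in 5 libraries and 96.7% in Th17 replicate 1, and 31 to 39 members were covered in full.

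Some members have near-identical copies. Of the 50-base words in a member's promoter window, a median of 14.3% occurred more than once in the assembly, and 50 bases is also the read length. The windows of Hist1h2bq, Hist1h2ao, Hist1h2ap and Hist1h2br consisted wholly of such words, and Hist1h4m, Hist1h4n, Hist2h3c1 and Hist2h3c2 exceeded 90%. Values of these 8 members are uncertain as to which copy they describe, and the authors excluded reads of mapping quality under 10. The same holds for Hist2h2aa1 and Hist2h2aa2, which share their peaks with Hist2h3c1 and Hist2h3c2. Peaks of all these members were still called in all 6 libraries, and how reads were shared between copies was not tested.

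The strength of a peak was measured as the percentile of its fold enrichment within its own list, where a higher percentile means more tagged fragments over background. Over called members the median percentile in replicates 1 and 3 was 99.1 and 97.0 for Th9, 97.3 and 94.5 for Th2, and 95.3 and 92.5 for Th17. For all protein-coding genes with a promoter peak it was 93.2 and 92.0, 91.6 and 90.8, and 93.0 and 92.0. The member median was thus above that of all genes with a promoter peak in each library, and the gap was smallest in the 2 Th17 libraries. That background includes genes called in some libraries only. Among the 12886 genes called in all 6 libraries, the median member rank in Th17 replicate 3 was 49.2%, below the middle rank. The mean of the 6 medians was 96.0 over members and 92.1 over all genes. In Th9 replicate 1, 35 of 67 members had a peak at or above the 99th percentile, against 5.72% of all genes. The number was 15 for Th9 replicate 3, 10 and 2 for Th2, and 4 and 0 for Th17, where all genes gave 4.16% to 5.31%.

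Among the core histones the strongest peaks belonged to the duplicated Hist2 genes. Hist2h2aa1 (H2A) and Hist2h3c1 (H3) shared a peak whose percentile was 99.9 in both Th9 libraries, 99.8 and 99.5 for Th2, and 99.6 and 98.3 for Th17. Their copies Hist2h2aa2 and Hist2h3c2 had a mean percentile of 99.3. Which copy each of these values describes is uncertain, as given above. Of H2B genes, Hist1h2bp, paired with Hist1h2an, averaged 98.9 and Hist1h2bg, paired with Hist1h2ae, 98.6. Of H4 genes the highest means were 96.9 at Hist1h4i and 96.7 at Hist1h4m. The peak of Hist1h4i was the one given to Hist1h2ag and Hist1h2bj in Th9 replicate 1 and in both Th2 libraries. The lowest core members were Hist2h2ab and Hist2h2ac (H2A, 93.4), Hist2h2bb and Hist2h3b (H2B and H3, 92.3), Hist1h3i (H3, 92.9), Hist2h4 (H4, 92.8) and Hist1h4j (H4, 92.9), and below them Hist3h2ba (H2B, 86.8), a Hist3 gene that ranged from 84.2 to 89.3. Thus the Hist2 cluster held both the highest and several of the lowest core members.

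Of the H1 genes, Hist1h1c averaged 96.3, Hist1h1a 94.6 and Hist1h1e 93.9. Hist1h1b was apart from them. Its percentile was 93.8 and 89.0 for Th9, 92.1 and 91.1 for Th2, and 81.2 and 76.6 for Th17, so both Th17 libraries lay below the other 4. Medians by type over the 6 libraries averaged 97.0 for H2A, 96.7 for H2B, 95.4 for H3, 95.4 for H4 and 94.2 for H1. These differences between types were smaller than the spread between libraries, since the H2A medians alone ran from 94.4 to 99.5. Within each library, however, H2A had the highest median of the types and H2B the next. As 11 pairs of an H2A and an H2B gene lay under a single peak in every library, the medians of these types share many values. Whether the types differ was not tested.

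**Figure D2:**
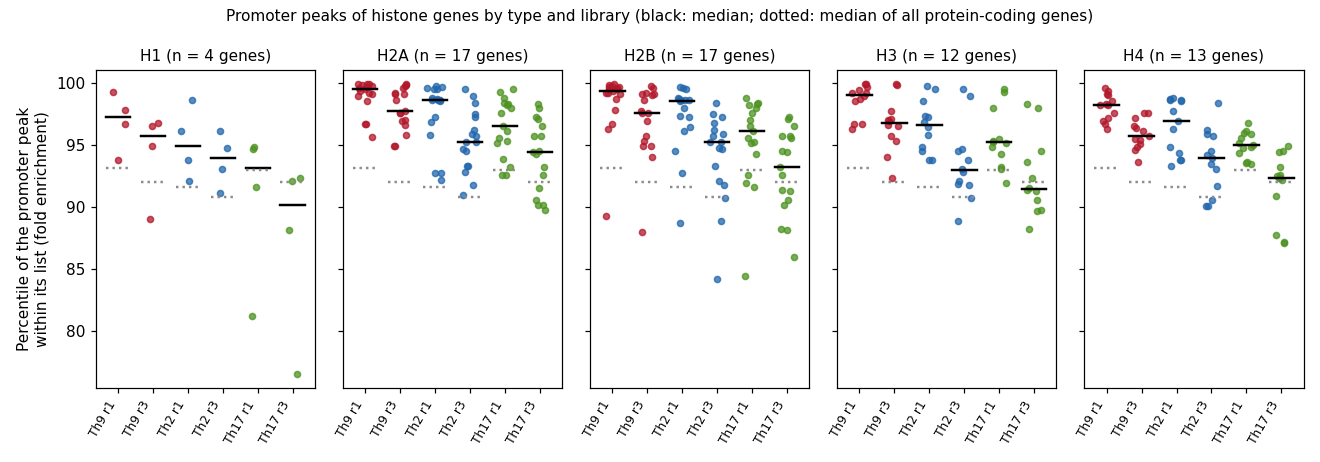
Percentile of the promoter peak within its list (vertical axis) for the called members, in 5 panels by histone type, with libraries on the horizontal axis (r1 and r3 are replicates 1 and 3). Each point is a gene, black lines are medians of the type, and dotted lines are medians of all protein-coding genes with a promoter peak. Medians of every type stand above the dotted line in both Th9 libraries and closest to it, or below it for H1 and H3, in Th17 replicate 3.

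Member peaks were also wide. The median width over members was 2097 and 2259 bp for Th9, 2094 and 2836 bp for Th2, and 1868 and 1879 bp for Th17, with a mean of 2172 bp. Over all promoters the mean was 1375 bp. A wide peak shared by members enters these medians once per member. With each shared peak counted once the median was lower, 1793.5 and 1911 bp for Th9, 1801.5 and 2232 bp for Th2, and 1668 and 1542 bp for Th17. The widest peak spanned Hist2h3b and Hist2h2bb, 4719 to 5668 bp, and the next spanned Hist1h4a, Hist1h3a and Hist1h1a, genes of 3 types, at 4127 to 4416 bp. The narrowest was that of Hist1h4b, 588 to 835 bp, followed by Hist3h2ba at 826 to 995 bp and Hist1h4d at 679 to 1104 bp. Both of the widest peaks held more than 1 member, and the widest was among the weakest in percentile.

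**Figure D3:**
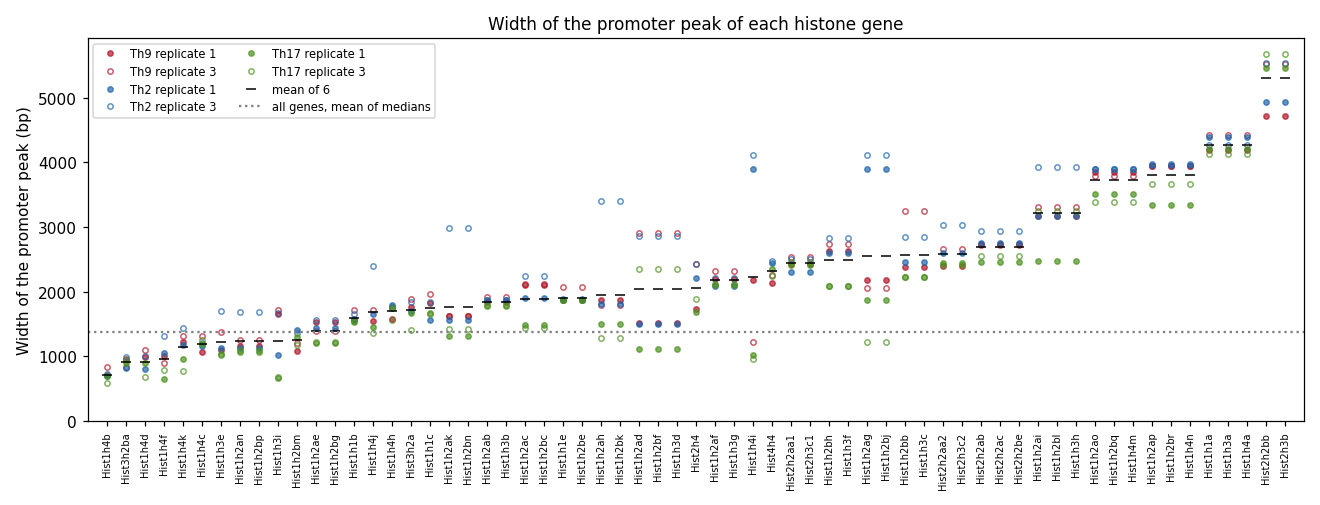
Width in bp (vertical axis) of the promoter peak of each called member (horizontal axis, ordered by mean width), with one point per library, filled for replicate 1 and open for replicate 3, and a dash at the mean. Genes that share a peak have the same points. Hist1h4b has the narrowest peaks and Hist2h2bb and Hist2h3b the widest, and the Th2 points of Hist1h4i, Hist1h2ag and Hist1h2bj stand apart from the rest.

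Whether width differed between subsets was tested with limma's F test on log2 width over the 12886 genes called in all 6 libraries. After Benjamini-Hochberg adjustment 0 of 63 members passed 0.05, against 1.96% of all genes. At an unadjusted p under 0.05 there were 10 members, and 14.6% of all genes. The member of smallest p was Hist1h4i, an H4 gene of run B. Its peak was 2178 and 1221 bp wide for Th9, 3898 and 4117 bp for Th2, and 1013 and 961 bp for Th17, so the Th2 libraries did not overlap the others (limma adjusted p = 0.0868). In Th2 that peak also took in the H2A and H2B pair Hist1h2ag and Hist1h2bj. In Th9 replicate 1 the pair and Hist1h4i were given the same peak, whereas in the other 3 libraries the pair had a peak apart. Run B held 3 peaks in Th9 replicate 1, of which 2 were promoter peaks of members, and 2 peaks in each Th2 library. A gene takes its overlapping peak of highest fold, so the 2178 bp of Hist1h4i may describe the peak of the pair, which was not tested. When 200 shared bases were required Hist1h4i was called (limma adjusted p = 0.0284).

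To compare subsets, the fold enrichment was ranked among the promoter peaks of the same 12886 genes in each library, 50% being the middle rank. The median rank over members was 91.8% and 75.6% for Th9, 78.6% and 61.1% for Th2, and 59.4% and 49.2% for Th17. Averaged by subset, Th9 stood at 83.7% ± 11.5, Th2 at 69.9% ± 12.3 and Th17 at 54.3% ± 7.20 (SD, n = 2 libraries each). Both Th9 values and both Th2 values lay above both Th17 values, by a narrow margin for Th2 replicate 3, whereas Th9 and Th2 overlapped. A rank of 90% or more was reached by 35 and 15 members for Th9, 16 and 4 for Th2, and 4 and 0 for Th17. Of all genes 10.0% reach it in each library, so the members of Th2 replicate 3 (6.35%) and of both Th17 libraries (6.35% and 0%) were below that share. With 2 libraries against 2 an exact permutation test cannot reach 0.05, so none was made for the medians.

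**Figure D4:**
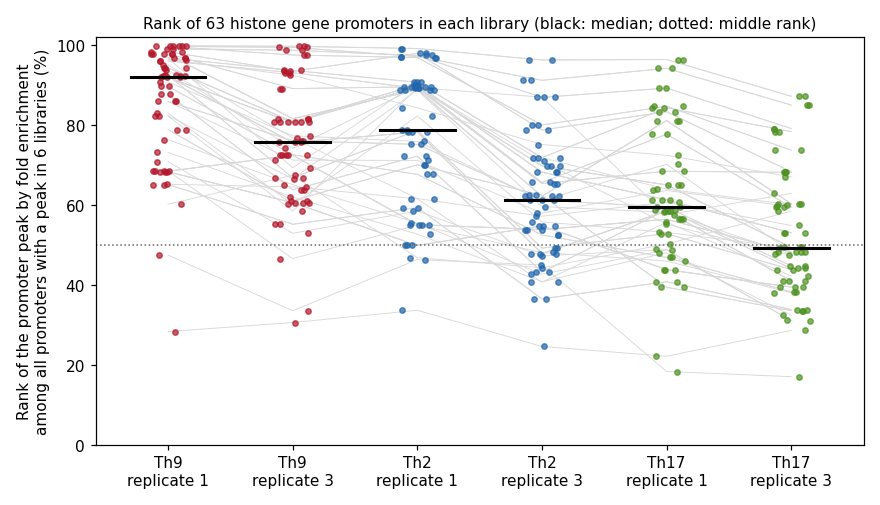
Rank in percent (vertical axis) of the promoter peaks of the 63 called histone genes among the 12886 promoters with a peak in all 6 libraries, by library. Points are genes joined by grey lines, black bars are medians, and the dotted line is the middle rank. The medians fall from 91.8% in Th9 replicate 1 to 49.2% in Th17 replicate 3, and Th9 replicate 3 stands above both Th17 libraries.

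The difference between Th9 and Th17 ran through nearly all members. In 61 of 63 both Th9 libraries ranked above both Th17 libraries, against 21.5% of all genes, and in 0 the reverse held, against 21.1%. The 2 exceptions were Hist3h2ba and Hist4h4. Counting each shared peak once gave 35 of 37, and leaving out the 8 members with mostly repeated windows gave 53 of 55. Both are alternatives chosen after the data had been seen. The second still held the peaks of Hist2h3c1 and Hist2h3c2, through Hist2h2aa1 and Hist2h2aa2. On the scale of the test, the normal quantile of the percentile, the difference was above 0 in 63 of 63 members, against 60% of all genes, with a median of 0.55 over members and 0.05 over all genes. By type the median was 0.65 for H2A, 0.59 for H2B, 0.56 for H3, 0.56 for H1 and 0.37 for H4.

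No single member passed the threshold in that comparison. In limma's test, adjusted by Benjamini-Hochberg over all 12886 genes, 0 members and 0.0776% of all genes had an adjusted p under 0.05. At an unadjusted p under 0.05 there were 46 of 63 members and 11.5% of all genes. That number rested on single libraries, since it was 14 without Th9 replicate 1 and 10 without Th17 replicate 3, where 1801 and 685 of all 12886 genes passed. The median difference was 0.36 without Th9 replicate 1 and 0.42 without Th17 replicate 3. On log2 fold enrichment after quantile normalization limma also called 0 members. The member of smallest p was Hist1h2bm, whose promoter is printed above with its octamer. It ranked at 96.3% and 92.4% for Th9, 84.2% and 75.1% for Th2, and 72.4% and 67.0% for Th17, so the Th9 values were the 2 highest. Its difference between Th9 and Th17 was 0.69 ± 0.15 (SE, limma adjusted p = 0.197, range over the alternatives 0.0765 to 0.829). Next came Hist2h2aa2 and Hist2h3c2, which share a peak, at 0.76 ± 0.18 (SE, limma adjusted p = 0.219, range over the alternatives 0.0683 to 0.857). Which copy that peak describes is uncertain.

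Between Th9 and Th2 the difference was above 0 in 62 of 63 members, against 59.5% of all genes (median 0.34 over members, 0.07 over all genes). Both Th9 libraries ranked above both Th2 libraries in 30 members, against 27.5% of all genes, and below in 1, Hist4h4, against 25.7%. The members stood nearer to the background by this measure than between Th9 and Th17. In limma's test 0 members were called, as were 0% of all genes, and at an unadjusted p under 0.05 there were 18 members and 17.8% of all genes. That number changed with the library left out, and with lists of equal length it was 37, where 22.9% of all genes passed. The median difference ran from 0.16 without Th9 replicate 1 to 0.52 without Th2 replicate 1. On the quantile-normalized scale limma again called 0 members. The 3 members of smallest p were those named for Th17, Hist1h2bm at 0.53 ± 0.15 and Hist2h2aa2 and Hist2h3c2 at 0.57 ± 0.18 (SE, limma adjusted p = 0.242 for each). These comparisons share the Th9 libraries and so are not independent.

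Between Th2 and Th17 the difference was above 0 in 56 of 63 members, against 46.1% of all genes (median 0.17 over members, −0.02 over all genes). It rested on single libraries, since leaving one out lowered the number to 31 without Th2 replicate 1 and 37 without Th17 replicate 3. Both Th2 libraries ranked above both Th17 libraries in 23 members, against 23.5% of all genes, and below in 1, Hist3h2a, against 25.4%. In limma's test 0 members and 0.0776% of all genes were called, and at an unadjusted p under 0.05 there were 4 members and 11.6% of all genes. That number also changed with the library left out. The median difference over members was −0.00015 without Th2 replicate 1, 0.05 without Th17 replicate 3 and 0.37 without Th2 replicate 3. Those of smallest p were Hist1h1b at 0.57 ± 0.14 (SE, adjusted p = 0.224), Hist4h4 at 0.53 ± 0.17 (adjusted p = 0.332) and, on a shared peak, Hist1h1e and the H2B gene Hist1h2be at 0.41 ± 0.16 (adjusted p = 0.392 for each), all by limma. On log2 fold enrichment after quantile normalization Hist1h1b was the only member called, at 0.78 on the log2 scale (limma adjusted p = 0.0232). Hist1h1b is the H1 gene whose Th17 percentiles were the lowest of any member. Its call rests on a small overlap, since with 200 shared bases required it had a promoter peak in 0 libraries.

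Hist4h4, the H4 gene that stands alone on chromosome 6, had a different order. Its rank was 82.2% and 58.4% for Th9, 89.3% and 86.9% for Th2, and 57.4% and 62.8% for Th17. Both Th2 libraries thus lay above the other 4, and Th9 overlapped Th17.

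Libraries of a subset differed in the same measure. Replicate 1 was above replicate 3 in 62 of 63 members for Th9, 60 for Th2 and 61 for Th17, on the scale of the test. The longer list of each subset was that of replicate 1, so list length moved with strength within a subset. Between Th9 and Th17 the Th9 list was the longer in 3 of the 4 pairs of libraries. In the other pair Th9 replicate 3 had 101102 peaks and a median member rank of 75.6%, and Th17 replicate 1 had 127073 peaks and 59.4%. With every list cut to the length of the shortest and percentiles taken anew, the difference between Th9 and Th17 was above 0 in 63 members with a median of 0.54, and that between Th2 and Th17 in 50 in place of 56. That cut removes weak peaks and leaves the fold enrichment of the others as it was, so it does not measure depth. The part of depth in the difference was not tested. A smaller share of cells with an open promoter and less accessibility per cell cannot be told apart in bulk samples.

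Genes of the same pathway were measured for comparison. All 25 factors of histone gene transcription and histone mRNA processing were called in every library. Their median percentile averaged 96.2 over the libraries, and the lowest mean percentile was 91.0, at Cdk2. They include, above that average, Npat, the coactivator of histone genes (mean percentile 98.1), Casp8ap2 (99.5), Slbp, which binds the hairpin (98.7), and Hinfp, a factor of H4 promoters (99.3). Their difference between Th9 and Th17 was above 0 in 20 of 25, with a median of 0.06, near that of all genes. Replication-independent histone genes, which are expressed outside DNA copying too, had a peak in all 6 libraries in 10 of 14. H2afy2, H1fx and H1foo were called in 2, 4 and 5 libraries, and the testis gene H1fnt in 0. Their difference between Th9 and Th17 was above 0 in 6 of 10 (median 0.12), against 63 of 63 for the replication-dependent genes. Between Th9 and Th2 it was above 0 in 7 of 10 (median 0.26) and in 21 of 25 factors (median 0.16), against 62 of 63 members (median 0.34). Between Th2 and Th17 it was above 0 in 4 of 10 (median −0.09) and in 7 of 25 factors (median −0.07), against 56 of 63 members (median 0.17). Whether the lists differ from one another was not tested.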

How the data were processed

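ATAC-seq peak lists of 6 libraries were analysed, 2 each of Th9, Th2 and Th17 cells. The authors trimmed reads with Trim Galore (0.4.3 in the submitters' processing notes), aligned them to mm10 with bowtie2, removed duplicates with Picard, excluded mitochondrial reads and reads of mapping quality under 10, and called broad peaks per library with MACS2 (2.1.0 in the same notes) from paired fragments, with no local background and no input. The lists hold no reads, so depth is unknown.

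Per peak the authors deposited a display score (not used), the fold enrichment over background as a linear ratio, and a p-value and q-value, each as −log10, which served as filters. Under such a filter percentiles were taken within the shortened list. Fold enrichment was ranked within each list. Promoters were taken from GENCODE M21, sequence from RefSeq and GRCm38.p6, with 0 peaks past a chromosome end. A gene took the overlapping peak of highest fold.

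Strength (normal quantile of the percentile) and log2 width were fitted across all genes called in 6 libraries with limma 3.58.1 (R 4.3.3), by subset, with Benjamini-Hochberg adjustment at 0.05, and the fit was tested on simulated data. Counting used Python 3.11.15, numpy 2.4.6, pandas 2.3.3 and scipy 1.17.1. Members and lists were chosen with earlier results of these data known. Some marker genes of other cell types are not reported here. Genes were named by rule: members with peaks in fewer than 6 libraries, the 2 highest and 2 lowest per type, any called, the testis genes, the 3 of smallest p per comparison, list genes with incomplete calls, and the 3 widest and narrowest. Also named were Pou2f1, H2bfm, a few factors of the pathway, the members with repeated windows, the head-to-head partners and the width example Hist1h4i, chosen after their values were seen. Alternatives covered peak thresholds, list length, promoter windows, overlap, scale, a replicate block, robust moderation and each library left out.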

Additional observations from a re-analysis of the deposited data

How the results depend on the processing

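With promoters of 2000 bp on either side the members without a peak in any library were 2 in place of 4. With 200 shared bases required they were 5, Hist1h1b among them, and 60 members in place of 63 were called in all 6 libraries. On log2 fold enrichment with quantile normalization 1 member was called between Th2 and Th17, and requiring 200 shared bases led to 1 member called by width. The median percentile of 96.0 was 90.2 when peaks needed a −log10 q of 5, 76.1 among peaks of at least 4-fold and 76.6 among the top 20000 peaks, lower by construction since weak peaks leave the list. Over all genes it was then 82.9, 70.3 and 69.8, so members stayed above. Members called by strength stayed at 0 under the other alternatives, each library left out included. The alternatives moved the calls over all genes more. Quantile normalization gave 211 genes between Th9 and Th2 in place of 0, 65 between Th9 and Th17 in place of 10 and 149 between Th2 and Th17 in place of 10, and 3 by width in place of 252. Lists of equal length gave 4, 46 and 46 genes, and peaks of at least 4-fold 8, 9 and 16. Between Th9 and Th17, the gene's own 5′ end gave 16 genes and 200 shared bases 18, and between Th2 and Th17 promoters of 2000 bp gave 4. Leaving out a library gave 0 to 23, 0 to 64 and 0 to 80 genes in the 3 comparisons, and 0 by width in each case, and the cause was not tested.

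Leaving out a library changed the counts of members by rank. For Th9 above Th2 in both libraries of each the count ran from 30 to 60, with 60 without Th9 replicate 3 and 57 without Th2 replicate 1, while all genes gave 37.7% to 43.8%. For Th2 above Th17 it ran from 23 to 59, with 59 without Th2 replicate 3 and 53 without Th17 replicate 1, while all genes gave 35.1% to 36.5%. A lone library has fewer values to overlap, so these counts rise by construction. For Th9 above Th17 it ran from 61 to 63, while all genes gave 31.8% to 41.0%. Members with a difference above 0 between Th2 and Th17 ran from 31 to 62, with 31 without Th2 replicate 1 and 37 without Th17 replicate 3, and between Th9 and Th2 from 51 to 62.

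The replicate numbers were shared between subsets, but no pairing is stated, and none was assumed in the main fit. Over all genes, deviations of libraries with the same number correlated at 0.144 (Th9 and Th2), −0.0496 (Th9 and Th17) and 0.116 (Th2 and Th17). Members, however, moved the same way, with replicate 1 above replicate 3 by a median of 0.39 for Th9, 0.45 for Th2 and 0.23 for Th17. Over all genes the medians were 0.10, 0.01 and 0.09, so a replicate block was also fitted. With the replicate block 0 members were called in each comparison, with 0, 17 and 18 of all genes called by strength and 0 by width. In limma's test 38, 58 and 16 members had an unadjusted p under 0.05 in place of 18, 46 and 4. The shares over all genes were 19.9%, 13.2% and 13.3% in place of 17.8%, 11.5% and 11.6%. Of the other results, 173 comparisons of the counts and medians with an alternative kept their values within 1.5 times or within the spread, and the 9 differences tested for the members of smallest p in each comparison kept their direction under the alternatives run for them. The lists give no read counts, so what depth limits is unknown, and 2 libraries a subset limit every test.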
